A study of Homo sapiens with 6 samples.

Results

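Expression of 10 markers and transcription factors of epithelial-mesenchymal transition (EMT) was examined in control and FAM60A knockout HEK293 cells. The genes, CDH1, CDH2, VIM, FN1, EPCAM, ZEB1, ZEB2, SNAI1, SNAI2 and TWIST1, were taken from a fixed list, matched by Ensembl gene identifier and were 10 of the 62754 genes in the deposited count table. That list was chosen with earlier results of these data known. HEK293 is a line of human embryonic kidney origin, and the labels also name its derivative HEK293T. The 3 control and 3 knockout libraries were made from poly(A) RNA of cells grown in the same medium. FAM60A, also called SINHCAF, encodes a subunit of the Sin3/HDAC corepressor complex. The knockout was a puromycin-selected pool of cells that had received Cas9 with guides against 3 regions of FAM60A and not a single clone, and the labels give no vector or selection for the controls. Nothing in the labels says that the libraries of a group came from separate cultures, so p-values measure the spread between these libraries, which may be technical.

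EMT is the reversible passage of polarized, tightly attached epithelial cells to a motile mesenchymal state, and it operates in development, wound repair and tumor invasion. E-cadherin (CDH1) at adherens junctions and the adhesion molecule EPCAM mark the epithelial state, whereas N-cadherin (CDH2), the intermediate filament vimentin (VIM) and the matrix protein fibronectin (FN1) mark the mesenchymal state. The zinc-finger factors of the SNAI and ZEB families bind E-box sequences in the promoters of epithelial genes and recruit corepressors, among them Sin3/HDAC, while TWIST1 is a basic helix-loop-helix factor of the same program. HEK293 cells are known to carry features of both states.

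Total counts lay between 88361827 and 93346824 per library. FAM60A itself reached 11028, 10165 and 12792 counts across control replicates 1 to 3, against 5684, 5793 and 5449 in the knockout. The groups did not overlap, and the transcript was 1.8-fold lower in the knockout by edgeR's quasi-likelihood test (log2 fold change -0.85, SE 0.11, adjusted p = 0.00863, n = 3 and 3). Without control replicate 3 the log2 fold change was -0.78 (adjusted p = 7.73e-09). The adjusted p was above 0.05 without knockout replicate 1 (0.0719), knockout replicate 2 (0.0571) or knockout replicate 3 (0.0736), and in the replicate block fit (0.0551). Control replicate 3 stood apart from the other controls: its chi-square distance per gene from control replicates 1 and 2 was 394 and 382, against 24.6 between those replicates and 233 to 291 between control replicate 3 and the knockout libraries. Results for the EMT genes are therefore given with and without that library. The marker genes of HEK293, of MDA-MB-231 (another line used by the study), of fibroblasts and of blood cells summed to 618 to 982, 84.1 to 125, 25.9 to 29.9 and 0.311 to 1.77 CPM (TMM-normalized counts scaled by library size) in the controls, and to 484 to 566, 96.1 to 106, 27.8 to 28.6 and 0.38 to 0.524 CPM in the knockout libraries. In the controls KRT8 alone gave 387 to 749 CPM of the HEK293 sums, and COL1A1 19.2 to 26.3 CPM of the fibroblast sums. A steady sum can thus hide genes that moved. No gene of these lists was at 0 in all libraries, and whether other cells had a part in any result was not tested.

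FN1 was the sole EMT gene that passed the edgeR test with all 6 libraries, at an adjusted p of at most 0.05, and it fell. The share called was 1 of 10 EMT genes against 16.6% of the 20992 genes tested, and in the direction lower in the knockout it was 1 of 10 against 8.67%. No EMT gene was called higher, against 7.96% of all genes. With a change of 1 log2 unit or more also required, FN1 remained, against 7.06% of all genes. An unadjusted p under 0.05 was given to 3 of the 10, against 34.5% of all genes. Library size without TMM normalization, which moved the median log2 fold change of all genes from -0.01 to -0.12, left the EMT call at 1 gene but split the calls over all genes into 1235 higher and 2668 lower, in place of 1671 higher and 1820 lower.

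Without control replicate 3, 9 of the 10 genes passed, against 65.6% of the 21686 genes then tested. CDH1 and EPCAM rose, 2 of 10 against 32.4% of all genes. CDH2, VIM, FN1, ZEB1, ZEB2, SNAI2 and TWIST1 fell, 7 of 10 against 33.2%. A change of 1 log2 unit or more was reached by 6 of the 10, against 22.9% of all genes. The median log2 fold change of the 10 genes was -0.54 with all libraries and -0.82 without control replicate 3, and that of all tested genes was -0.01 and 0.00. Each of the 10 genes had the same sign in both fits. In bulk RNA, fewer cells in an epithelial or mesenchymal state and less RNA per cell cannot be told apart.

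**Figure D1:**
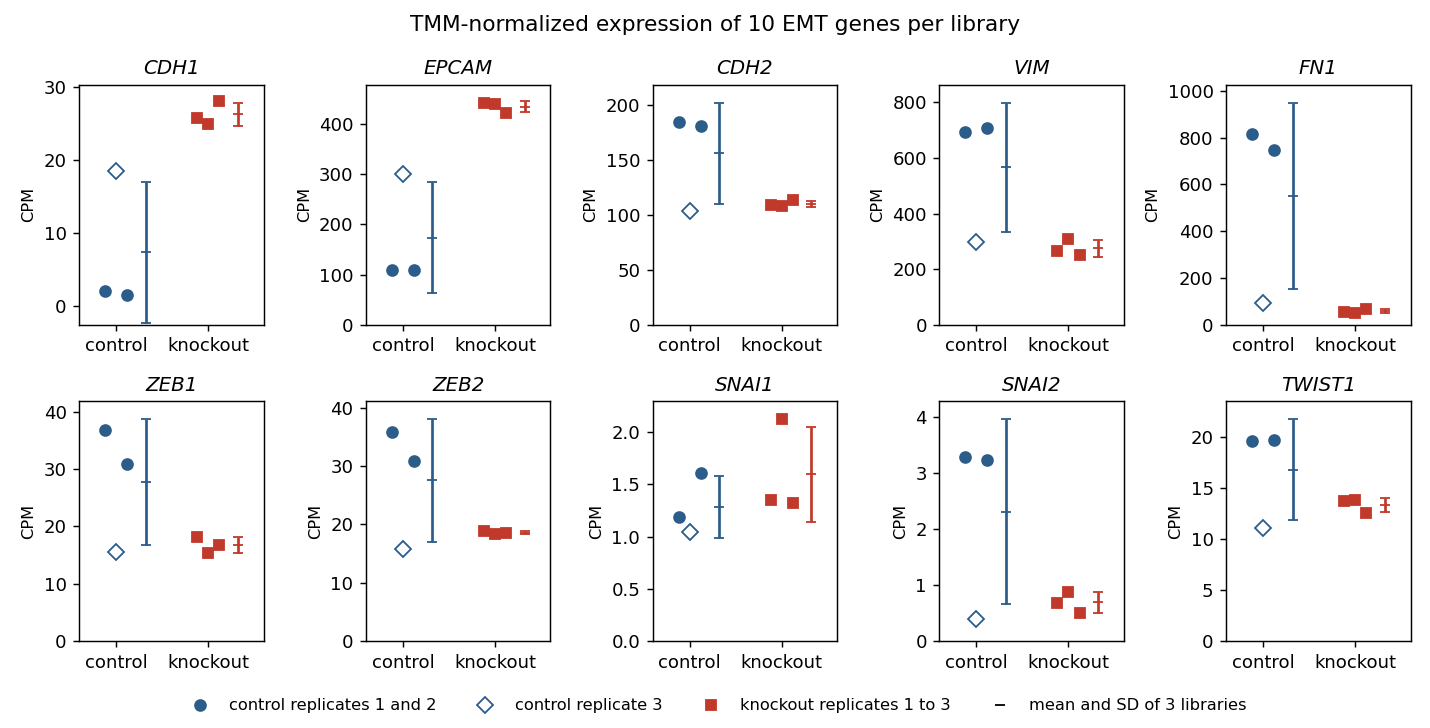
Normalized level of each EMT gene (CPM with TMM factors, linear axis) in the 3 control and 3 knockout libraries, with the mean and SD of each group beside the points. The open diamond, control replicate 3, lies nearer to the knockout squares than to the other controls in all panels but SNAI1, and for CDH1, EPCAM and FN1 it lies between the other controls and the knockout libraries.

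The promoters of 3 genes that fell at least in the fit without control replicate 3 are shown, since FN1 carried the call made with all libraries, and VIM and ZEB1 are the mesenchymal marker most abundant per exon length and a repressor of CDH1. The stretches hold the 250 bases before the transcription start, 5′ to 3′ on the gene's strand, from RefSeq (GRCh38.p14), where 5 of the 10 genes matched an entry: VIM, FN1, ZEB1, ZEB2 and CDH2. FN1 lies at chr2:215436069-215436318 on the minus strand, and VIM at chr10:17227991-17228240 and ZEB1 at chr10:31318966-31319215 on the plus strand. Capitals mark the GC box GGGCGG, the motif of SP-family factors, in FN1 and VIM, and the E-box CAGGTG or CACCTG, the motif of SNAI and ZEB factors, in ZEB1.
FN1: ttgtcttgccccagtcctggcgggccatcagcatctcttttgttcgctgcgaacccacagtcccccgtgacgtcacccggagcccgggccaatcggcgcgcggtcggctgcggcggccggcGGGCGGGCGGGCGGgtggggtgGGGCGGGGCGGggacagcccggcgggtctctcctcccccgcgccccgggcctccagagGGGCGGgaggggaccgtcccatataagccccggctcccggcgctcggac
VIM: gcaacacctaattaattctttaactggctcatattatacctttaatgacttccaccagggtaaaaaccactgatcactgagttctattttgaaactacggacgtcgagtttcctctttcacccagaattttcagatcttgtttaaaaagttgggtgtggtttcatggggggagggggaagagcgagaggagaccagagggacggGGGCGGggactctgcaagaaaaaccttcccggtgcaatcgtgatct
ZEB1: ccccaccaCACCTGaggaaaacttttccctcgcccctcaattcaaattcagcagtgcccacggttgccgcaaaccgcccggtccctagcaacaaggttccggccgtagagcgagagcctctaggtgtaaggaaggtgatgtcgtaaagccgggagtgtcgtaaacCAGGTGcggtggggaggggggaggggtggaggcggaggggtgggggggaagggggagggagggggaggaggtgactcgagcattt
Both strands were searched over the 250 bases before and 50 after the start, and overlapping matches were counted. The FN1 promoter held 6 GC boxes, several of them overlapping, and that of VIM held 1, whereas 45.0% of the 35116 promoters in the table held at least 1. The ZEB1 promoter shown was the ZEB1 entry with the most E-boxes. It held 3, at 242 and 85 bases before the start and within the 50 bases after it. It also held 1 GC box, left in lower case, and other ZEB1 entries and a CDH2 entry held GC boxes too. In all, 2 of 7 ZEB1 promoters held this E-box and none of the entries of FN1, VIM, ZEB2 and CDH2 did, against 20.6% of all promoters. A match describes letters in the window and not binding.

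Among the epithelial markers, CDH1 encodes E-cadherin, the calcium-dependent adhesion receptor whose loss is a hallmark of EMT (ENSG00000039068, chr16:68771195-68869440 in GRCh37, GENCODE 44). CDH1 reached 198, 147 and 1792 counts across control replicates 1 to 3, against 2164, 2184 and 2474 in the knockout. All 3 knockout libraries lay above the controls, and control replicate 3 lay close below them, 10.4-fold above the mean of the other controls. CDH1 had a log2 fold change of 1.83 (SE 0.94, 95% interval -0.43 to 4.09, edgeR adjusted p = 0.218), which did not pass the test. It rose 14.4-fold without control replicate 3 (log2 fold change 3.84, SE 0.12, adjusted p = 9.48e-17, with a range up to 0.385 over the 13 alternatives).

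EPCAM encodes a homophilic adhesion molecule of epithelia and carcinomas (ENSG00000119888, chr2:47572297-47614740 in GRCh37). It gave 10669, 10521 and 29052 counts across control replicates 1 to 3, against 37291, 38691 and 37289 in the knockout. The groups did not overlap, although control replicate 3 was 2.74-fold above the other controls. The log2 fold change was 1.33 (SE 0.41, 95% interval 0.34 to 2.32, edgeR adjusted p = 0.0733). EPCAM rose 3.89-fold without control replicate 3 (log2 fold change 1.96, SE 0.08, adjusted p = 1.33e-14, up to 0.204 over the alternatives). DESeq2 and both limma-voom fits called EPCAM higher with all 6 libraries.

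Of the mesenchymal markers, FN1 encodes fibronectin, a glycoprotein of the extracellular matrix (ENSG00000115414, chr2:216225163-216300796 in GRCh37). FN1 gave 79336, 71554 and 9148 counts across control replicates 1 to 3, against 4463, 4479 and 5853 in the knockout. All knockout libraries were below all controls, but control replicate 3 was much nearer to them, 8.24-fold below the mean of the other controls. FN1 fell 9.72-fold with all 6 libraries, from 552 ± 398 to 56.8 ± 8.29 CPM (SD, n = 3 and 3), with a log2 fold change of -3.28 (SE 0.75, 95% interval -5.10 to -1.47, edgeR adjusted p = 0.0343). The fall was 14.0-fold without control replicate 3 (log2 fold change -3.81, SE 0.10, adjusted p = 8.64e-18). Over the 13 alternatives the adjusted p of FN1 ran from 8.64e-18 to 0.152. It was above 0.05 in 8 of them. With all 6 libraries these were limma-voom with TMM (0.0694), limma-voom with quantile normalization (0.0658) and the edgeR replicate block (0.121). The others were the edgeR fits without control replicate 1 (0.0877), control replicate 2 (0.0977), knockout replicate 1 (0.152), knockout replicate 2 (0.132) and knockout replicate 3 (0.136). Each limma-voom fit called EPCAM, which rose, as its sole EMT gene.

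VIM encodes vimentin, the intermediate filament of mesenchymal cells (ENSG00000026025, chr10:17270240-17279592 in GRCh37). VIM reached 67461, 67908 and 28924 counts across control replicates 1 to 3, against 22202, 27081 and 22257 in the knockout. In CPM, control replicate 3, at 299, lay inside the knockout range of 252 to 309, so the groups overlapped. With all 6 libraries VIM had a log2 fold change of -1.04 (SE 0.33, 95% interval -1.83 to -0.26, edgeR adjusted p = 0.0745). VIM fell 2.61-fold without control replicate 3 (log2 fold change -1.38, SE 0.09, adjusted p = 1.36e-11, up to 0.23 over the alternatives). The antisense transcript VIM-AS1, which overlaps VIM, gave 342, 400 and 157 counts across control replicates 1 to 3, against 179, 165 and 199 in the knockout. VIM-AS1 had a log2 fold change of -0.57 (edgeR adjusted p = 0.295) with all libraries and fell without control replicate 3 (log2 fold change -0.91, adjusted p = 2.8e-06, up to 0.646 over the alternatives). The strand setting of the counting was not given in the sources used here, so reads of VIM and VIM-AS1 may not be separated.

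CDH2 encodes N-cadherin, the cadherin of neural and mesenchymal cells that takes the place of E-cadherin in the cadherin switch (ENSG00000170558, chr18:25512843-25757910 in GRCh37). CDH2 reached 17928, 17355 and 9979 counts across control replicates 1 to 3, against 9199, 9468 and 9971 in the knockout. Control replicate 3, at 103 CPM, was the lowest library, below the knockout range of 108 to 113 CPM. CDH2 had a log2 fold change of -0.50 (SE 0.22, 95% interval -1.04 to 0.03, edgeR adjusted p = 0.164). CDH2 fell 1.7-fold without control replicate 3 (log2 fold change -0.76, SE 0.07, adjusted p = 9.79e-09, up to 0.376 over the alternatives). Per exon length, CDH2 was 64.1 and 83.6 times as abundant as CDH1 in control replicates 1 and 2, 3.94 times in control replicate 3 and 2.85 to 3.07 times in the knockout libraries. N-cadherin transcripts thus outnumbered E-cadherin transcripts per length in all 6 libraries.

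**Figure D2:**
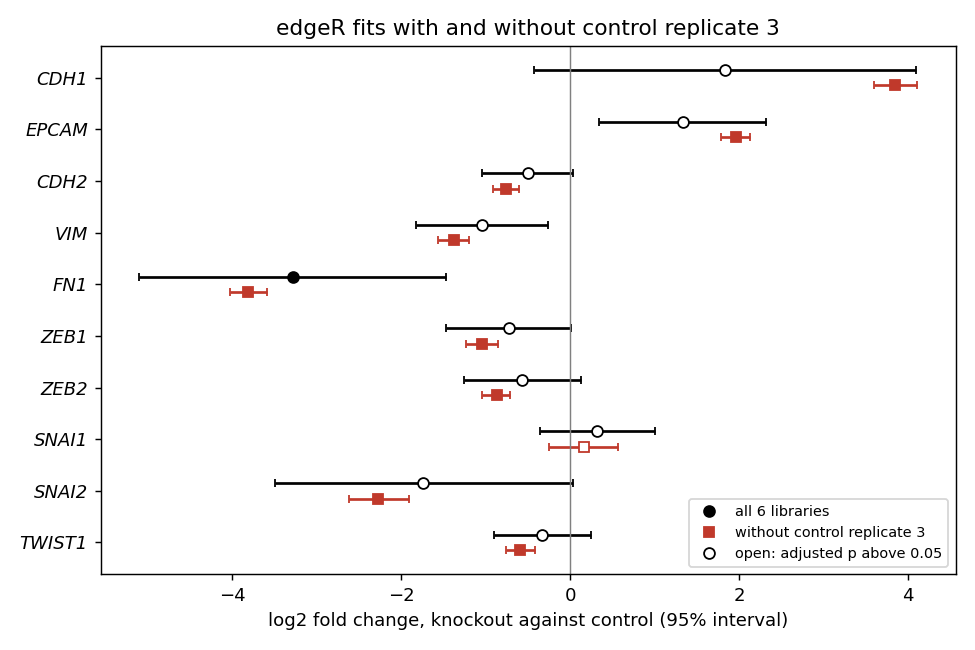
Log2 fold change of each EMT gene in the knockout against control, with its 95% interval, from edgeR fits of all 6 libraries (black circles) and without control replicate 3 (red squares), where filled symbols have an adjusted p of at most 0.05. With all libraries FN1 alone is filled, and without control replicate 3 all symbols but that of SNAI1 are filled and the intervals are narrower.

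Turning to the transcription factors, ZEB1 is a zinc-finger homeodomain repressor of CDH1 (ENSG00000148516, chr10:31607424-31818742 in GRCh37). ZEB1 gave 3581, 2959 and 1496 counts across control replicates 1 to 3, against 1526, 1339 and 1471 in the knockout. Control replicate 3, at 15.5 CPM, lay within the knockout range of 15.3 to 18.1 CPM. With all 6 libraries ZEB1 had a log2 fold change of -0.73 (SE 0.31, 95% interval -1.47 to 0.01, edgeR adjusted p = 0.149). ZEB1 fell 2.07-fold without control replicate 3 (log2 fold change -1.05, SE 0.09, adjusted p = 1.53e-09, up to 0.343 over the alternatives). ZEB1-AS1, which runs antisense to the ZEB1 start, gave 790, 822 and 1126 counts across control replicates 1 to 3, against 1054, 1031 and 918 in the knockout, with a log2 fold change of 0.29 (edgeR adjusted p = 0.314). Without control replicate 3 ZEB1-AS1 rose (log2 fold change 0.44, adjusted p = 0.000427, up to 0.627 over the alternatives), while ZEB1 fell in that fit.

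ZEB2, the paralog of ZEB1, also represses CDH1 (ENSG00000169554, chr2:145121931-145278624 in GRCh37). It gave 3488, 2966 and 1531 counts across control replicates 1 to 3, against 1591, 1618 and 1632 in the knockout. In CPM, control replicate 3 was the lowest library, at 15.8 against 18.4 to 18.9 in the knockout. ZEB2 had a log2 fold change of -0.57 (SE 0.29, 95% interval -1.26 to 0.13, edgeR adjusted p = 0.216). It fell 1.83-fold without control replicate 3 (log2 fold change -0.87, SE 0.08, adjusted p = 5.37e-09, up to 0.467 over the alternatives). The count ratio of ZEB1 to ZEB2 was 1.03, 0.998 and 0.977 in control replicates 1, 2 and 3 and 0.828 to 0.959 in the knockout libraries. The miR-200 family restrains both ZEB factors, and MIR200A, MIR200B, MIR200C and MIR429 were listed at 0 in all libraries, MIR141 had 1 count in 1 library and MIR200CHG at most 2, in libraries of poly(A) RNA that do not measure mature miRNAs.

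SNAI1, or Snail, is a zinc-finger repressor that binds the E-boxes of CDH1 (ENSG00000124216, chr20:48599517-48605423 in GRCh37). SNAI1 reached 116, 155 and 100 counts across control replicates 1 to 3, against 114, 186 and 117 in the knockout. The groups overlapped, and control replicate 3 was the lowest library. The log2 fold change was 0.32 (SE 0.28, 95% interval -0.36 to 1.0, edgeR adjusted p = 0.46), and without control replicate 3 it was 0.16 (SE 0.20, 95% interval -0.25 to 0.57, adjusted p = 0.489, from 0.347 to 0.889 over the alternatives). The wider interval includes an increase of 1 log2 unit.

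SNAI2, or Slug, is the paralog of SNAI1 with a role in neural crest migration (ENSG00000019549, chromosome 8). SNAI2 gave 320, 310 and 39 counts across control replicates 1 to 3, against 58, 77 and 45 in the knockout. Control replicate 3 was the lowest of the 6, 8.07-fold below the mean of the other controls. SNAI2 had a log2 fold change of -1.74 (SE 0.73, 95% interval -3.50 to 0.03, edgeR adjusted p = 0.15). SNAI2 fell 4.81-fold without control replicate 3 (log2 fold change -2.27, SE 0.17, adjusted p = 1.73e-10, up to 0.361 over the alternatives). The SNAI paralogs thus gave different calls in that fit, but the difference between them was not tested.

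TWIST1, a factor of mesoderm and cranial development, was the most abundant of the 5 factors per exon length (ENSG00000122691, chr7:19060614-19157259 in GRCh37). TWIST1 reached 1905, 1895 and 1072 counts across control replicates 1 to 3, against 1151, 1215 and 1112 in the knockout. Control replicate 3 was again the lowest library in CPM, at 11.1 against 12.6 to 13.8 in the knockout. TWIST1 had a log2 fold change of -0.33 (SE 0.24, 95% interval -0.90 to 0.24, edgeR adjusted p = 0.364). TWIST1 fell 1.5-fold without control replicate 3 (log2 fold change -0.59, SE 0.08, adjusted p = 1.85e-06, up to 0.678 over the alternatives).

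In levels per exon length (CPM per kb over all annotated exons), the order of the 10 genes changed between the groups. VIM led in control replicates 1 and 2, with a mean of 135, followed by FN1 at 45.3 and EPCAM at 45.1, whose ranges overlapped. CDH1 was the lowest, at 0.294. In the knockout libraries EPCAM led at 179, followed by VIM at 53.1 and CDH2 at 12.8, and CDH1, at 4.31, stood above FN1, at 3.3, and above every factor but TWIST1, at 6.69. SNAI2 was the lowest, at 0.211. Each of the 9 pairs of neighbours in the knockout order had ranges that did not overlap, and in control replicates 1 and 2 this held for all but FN1 and EPCAM. These ranges are spreads between libraries and do not cover error in the exon lengths, on which the order between genes depends. All annotated exons came to 17216 bases for FN1 and 6076 for CDH1. In CPM, FN1 was above CDH1 in the knockout (56.8 against 26.2). In control replicate 3 the order followed the knockout at the top, with EPCAM at 124, VIM at 57.8, CDH2 and then TWIST1 at 5.56, and FN1, at 5.5, stood above CDH1, at 3.05. Together the 10 genes took 0.199% and 0.189% of all counts in control replicates 1 and 2, 0.0891% in control replicate 3 and 0.0903% to 0.0946% in the knockout libraries.

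**Figure D3:**
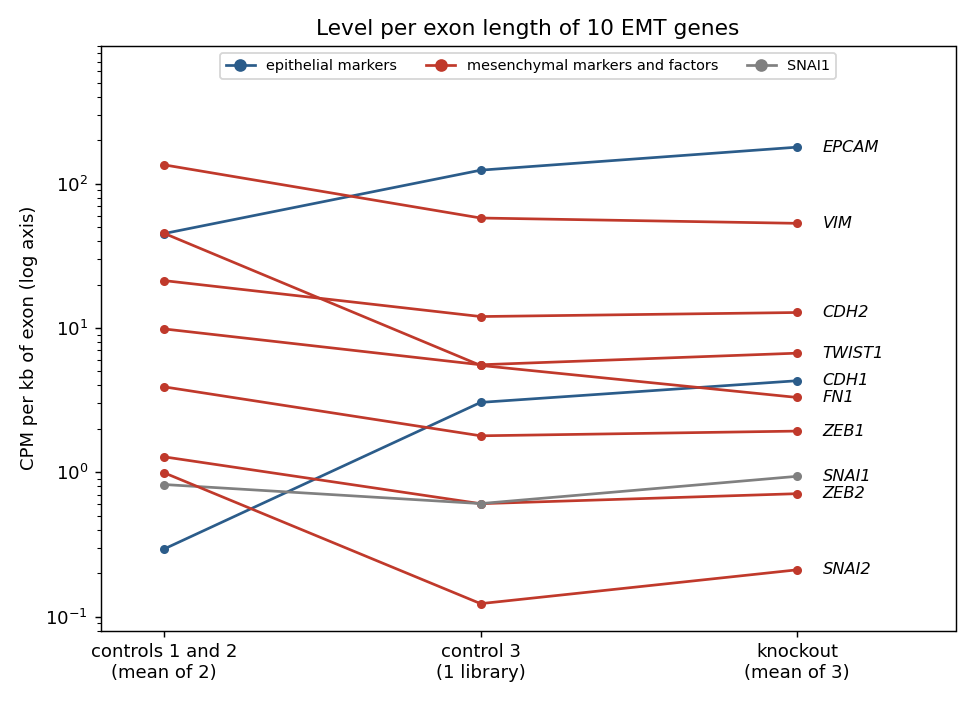
Level per exon length of each EMT gene (CPM per kb, log axis) as the mean of control replicates 1 and 2, in control replicate 3 and as the mean of the 3 knockout libraries. The lines of CDH1 and EPCAM run upward, with EPCAM crossing VIM and CDH1 crossing FN1, as EPCAM goes from 45.1 to 179 and FN1 from 45.3 to 3.3, and for all genes but SNAI1 the middle point lies nearer to the knockout than to the other controls. The crossing of CDH1 and FN1 depends on the exon lengths, since in CPM FN1 stayed above CDH1 in the knockout.

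The place of control replicate 3 was measured on the log2 CPM scale, with 0% at the mean of the other controls and 100% at the knockout mean. It was 73.2% for EPCAM, 80.3% for FN1, 87.2% for CDH1 and 90.5% for VIM, and above 100%, past the knockout mean, for ZEB1 (110), CDH2 (112), ZEB2 (128), SNAI2 (132) and TWIST1 (148). Control replicate 3 was nearer to the knockout mean for 9 of the 10 genes, all but SNAI1. Of the genes at least 1 log2 unit apart between control replicates 1 and 2 and the knockout, 6 of 6 EMT genes and 68.9% of 4412 tested genes lay nearer to the knockout in control replicate 3, with median places of 88.8% and 78.9%. FAM60A itself did not share this place, being 1.21-fold higher in control replicate 3 than in the other controls. Control and knockout libraries did not overlap for 3 EMT genes, CDH1, EPCAM and FN1, against 41.6% of all tested genes. What set control replicate 3 apart was not tested.

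**Figure D4:**
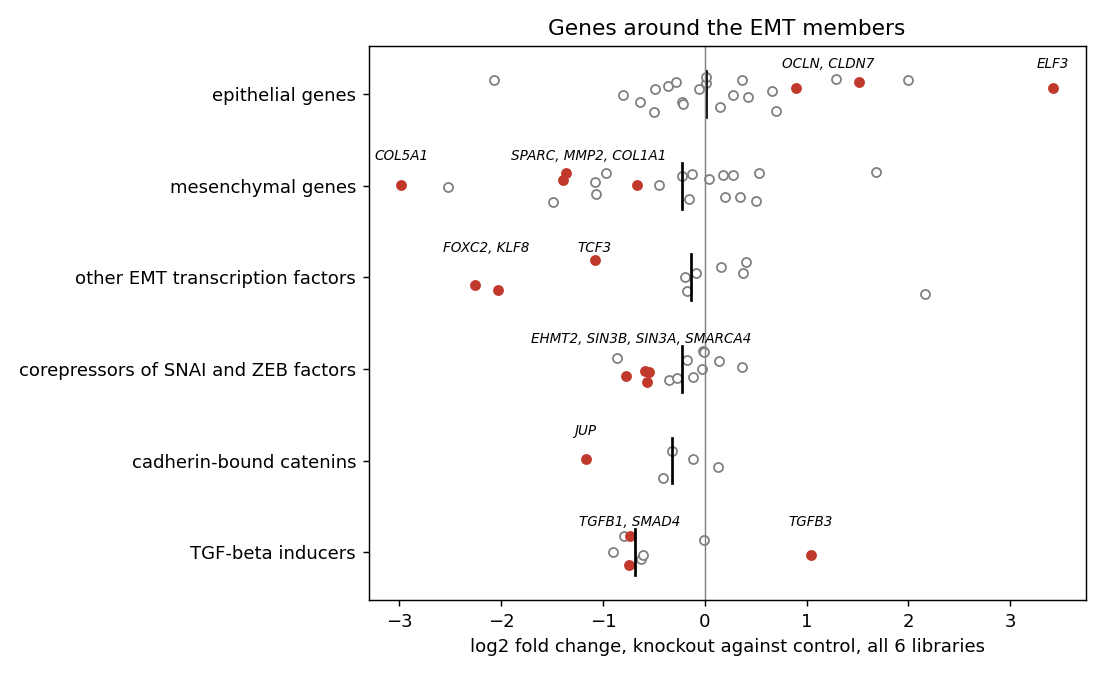
Log2 fold change in the knockout against control, from the edgeR fit of all 6 libraries, for tested genes of 6 lists related to EMT. Each circle is a gene, filled red and named where the adjusted p is at most 0.05, with points spread vertically for legibility, and the black bar is the list's median, which lies between -0.68 (TGF-beta inducers) and 0.01 (epithelial genes).

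Among 25 other epithelial genes, 23 were tested with all 6 libraries, and 3 rose and none fell, with a median log2 fold change of 0.01. Over all genes 7.96% rose and 8.67% fell in this fit, and 32.4% rose and 33.2% fell in the fit without control replicate 3. ELF3, an epithelial ETS factor, gave 26, 16 and 31 counts across control replicates 1 to 3, against 226, 247 and 233 in the knockout, a 10.7-fold rise (log2 fold change 3.42, SE 0.28, edgeR adjusted p = 0.00296). CLDN7, a tight junction claudin, rose 2.86-fold (log2 fold change 1.52, SE 0.16, adjusted p = 0.00552), and OCLN, which encodes occludin, rose 1.87-fold (log2 fold change 0.90, SE 0.10, adjusted p = 0.00622). In each of the 3, control replicate 3 was close to both other controls, with 376 counts of CLDN7 beside 412 and 486, and 2452 of OCLN beside 2486 and 2174. In the fit without control replicate 3, 11 of 24 tested genes rose and 7 fell, against 32.4% and 33.2% of all genes, with a median of 0.16, and ELF3, CLDN7 and OCLN rose 12.1-fold, 2.65-fold and 1.86-fold. Genes chosen after their values were seen show both directions in that fit: SPINT2, a protease inhibitor, gave 2598, 2741 and 34187 counts across control replicates 1 to 3, against 47095 to 47251 in the knockout, ESRP1, an epithelial splicing regulator, had 495, 474 and 2102 against 2119 to 2411, and KRT8, a keratin of simple epithelia, had 69249, 71970 and 37378 against 28809 to 33595. KRT8 and KRT18 also belong to the HEK293 marker list.

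Of 24 other mesenchymal genes, 21 were tested, and 4 fell, against 8.67% of all genes, and none rose, with a median log2 fold change of -0.22. COL5A1, a fibrillar collagen chain, gave 4249, 4038 and 1290 counts across control replicates 1 to 3, against 397, 328 and 360 in the knockout, a 7.91-fold fall (log2 fold change -2.98, SE 0.46, edgeR adjusted p = 0.0124). MMP2, a gelatinase of the matrix, gave 1286, 1269 and 1340 counts across control replicates 1 to 3, against 413, 489 and 464 in the knockout and fell 2.56-fold (log2 fold change -1.36, SE 0.13, adjusted p = 0.00463), with control replicate 3 close to both other controls. The matrix glycoprotein gene SPARC fell 2.63-fold (adjusted p = 0.0172) and COL1A1, a type I collagen chain, fell 1.59-fold (adjusted p = 0.0361). Without control replicate 3, 13 of 22 tested genes fell and 5 rose, against 33.2% and 32.4% of all genes, with a median of -0.55, and COL5A1, MMP2, SPARC and COL1A1 fell 10.5-fold, 2.57-fold, 3.18-fold and 1.77-fold. LOX, a gene of the same list named after its values were seen, was among the 5 that rose. It gave 652, 661 and 2959 counts across control replicates 1 to 3, against 3936 to 4263 in the knockout. The rise of LOX was 6.82-fold without control replicate 3 (edgeR adjusted p = 9.68e-17), and with all 6 libraries its adjusted p was 0.108. CDH11, a mesenchymal cadherin also named after its values were seen, had 2567 and 2376 counts in control replicates 1 and 2 but 7 in control replicate 3 and 1 to 3 in the knockout libraries. A floor of 3 counts per library was used, which covers counting error only. Against it, the mean CPM of CDH11 was at least 739-fold lower in the knockout than in control replicates 1 and 2. It was at least 493-fold lower than the mean of all 3 controls, a bound carried by control replicates 1 and 2. Control replicate 3 alone, at 0.0725 CPM, was close to the floor of 0.0346 CPM. COL1A1, COL1A2 and COL3A1 also belong to the fibroblast marker list, and COL1A2 was at 0 to 2 counts in every library. Of the other fibroblast genes, DCN gave 0, 1 and 1 counts across control replicates 1 to 3, against 30, 33 and 33 in the knockout, LUM gave 244, 223 and 47, against 789, 642 and 727, and PDGFRA gave 76, 76 and 229, against 222, 223 and 276. With all 6 libraries DCN and LUM were called higher (edgeR adjusted p = 0.00373 and 0.0463), and PDGFRA was not (0.161).

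All of the 10 other EMT transcription factors were tested, and 3 fell, against 8.67% of all genes, and none rose, with a median log2 fold change of -0.13. FOXC2, a forkhead factor, gave 423, 474 and 189 counts across control replicates 1 to 3, against 61, 93 and 50 in the knockout and fell 4.78-fold (log2 fold change -2.26, SE 0.42, edgeR adjusted p = 0.0204). KLF8, a Krüppel-like factor, fell 4.08-fold (adjusted p = 0.0104). TCF3, whose E2A proteins bind E-boxes, gave 14595, 16253 and 13106 counts across control replicates 1 to 3, against 5788, 6903 and 5961 in the knockout and fell 2.12-fold (log2 fold change -1.08, SE 0.12, adjusted p = 0.00593). With control replicate 3 left out, 5 rose and 4 fell, against 32.4% and 33.2% of all genes, with a median of 0.16, and FOXC2, KLF8 and TCF3 fell 6.05-fold, 4.69-fold and 2.28-fold. PRRX1, a homeobox factor of mesenchyme named after its values were seen, moved opposite to ZEB1 and SNAI2 in that fit, with 27, 35 and 1057 counts across control replicates 1 to 3, against 1473 to 1546 in the knockout.

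SNAI and ZEB factors act through corepressors, and 4 of the 14 tested fell, against 8.67% of all genes, and none rose, with a median log2 fold change of -0.22. SIN3A, the scaffold of the complex that holds FAM60A, fell 1.49-fold (log2 fold change -0.57, SE 0.10, edgeR adjusted p = 0.0185). SIN3B fell 1.51-fold (log2 fold change -0.59, SE 0.08, adjusted p = 0.0103). SIN3B gave 6264, 6453 and 6149 counts across control replicates 1 to 3, against 3433, 3927 and 3864 in the knockout, with control replicate 3 among the controls. EHMT2, a histone H3 methyltransferase, fell 1.7-fold (adjusted p = 0.0286) and SMARCA4, a chromatin remodeling ATPase, fell 1.46-fold (adjusted p = 0.0178). Without control replicate 3, 10 of the 14 fell and 3 rose, against 33.2% and 32.4% of all genes, with a median of -0.32, and SIN3A, SIN3B, EHMT2 and SMARCA4 fell 1.59-fold, 1.56-fold, 1.95-fold and 1.55-fold.

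Cadherins are anchored by catenins, of which 5 of 7 were tested and 1 fell, against 8.67% of all genes, with a median log2 fold change of -0.32. JUP, which encodes plakoglobin, gave 10349, 11578 and 10241 counts across control replicates 1 to 3, against 3685, 4993 and 4139 in the knockout and fell 2.26-fold (log2 fold change -1.17, SE 0.13, edgeR adjusted p = 0.00582). CTNND2, a p120-related catenin, did not pass the filter on low counts with all libraries. It gave 729, 725 and 6 counts across control replicates 1 to 3, against 1, 8 and 4 in the knockout. ARVCF, of the same family, had a log2 fold change of -0.41 (SE 0.14, adjusted p = 0.089) and fell 1.48-fold without control replicate 3 (adjusted p = 9.46e-07, up to 0.247 over the alternatives). In that fit 5 of 6 catenins fell, against 33.2% of all genes, and none rose, with a median of -0.55, and JUP fell 2.36-fold along with CTNND2 (log2 fold change -7.23).

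TGF-beta signaling is the best known inducer of EMT, and of its 8 ligands, receptors and SMADs 1 rose and 2 fell, against 7.96% and 8.67% of all genes, with a median log2 fold change of -0.68. Among the ligands, TGFB3 gave 595, 529 and 753 counts across control replicates 1 to 3, against 1122, 1193 and 1144 in the knockout and rose 2.05-fold (log2 fold change 1.04, SE 0.17, edgeR adjusted p = 0.0147). TGFB1 fell 1.67-fold (log2 fold change -0.74, SE 0.19, adjusted p = 0.0462), and SMAD4, the common mediator of the pathway, fell 1.66-fold (log2 fold change -0.73, SE 0.14, adjusted p = 0.0216). Leaving out control replicate 3, 1 rose and 6 fell, against 32.4% and 33.2% of all genes, with a median of -0.89, and TGFB3 rose 2.24-fold while TGFB1 and SMAD4 fell 1.9-fold and 1.86-fold. Leaving out any other library lowered the counts of calls in all 6 lists or left them the same. Over all genes, these fits called between 167 of 21873 and 1049 of 21470. Called by edgeR were then 1 to 3 epithelial genes, 0 to 2 mesenchymal genes, 0 to 2 of the other factors, 0 to 1 corepressors, 0 to 1 catenins and 0 TGF-beta inducers. Those with an unadjusted p under 0.05 numbered 4 to 7, 5 to 6, 4, 4 to 6, 1 to 2 and 3 to 4, against 22.6% to 27.0% of all genes. Of the 18 genes of these lists called with all 6 libraries, 18 were called in the same direction without control replicate 3. That fit reuses the other libraries and called 65.6% of all tested genes. The share called again among all genes called with all 6 libraries was not counted. ELF3 alone was called in each of the 13 alternatives, with an adjusted p of at most 0.0437, and the highest adjusted p of the others lay between 0.0542 and 0.183. How many of all genes were called in each alternative was not counted.

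The profile most like that of FN1 over the 6 libraries, by Euclidean distance between centred log2 CPM values among genes outside these lists, was that of ZNF93, a zinc-finger gene, at a distance of 0.41, followed by PTGER4, a prostaglandin E2 receptor, at 0.49 and ELSPBP1 at 0.53. ZNF93 gave 387, 324 and 46 counts across control replicates 1 to 3, against 15, 22 and 25 in the knockout. The likeness includes the low value in control replicate 3.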

How the data were processed

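The data were poly(A) RNA libraries of HEK293 cells, 3 control and 3 FAM60A knockout, grouped by their labels. According to the methods, libraries were strand-specific, Trimmomatic filtered the reads, and Salmon quantified them on hg38. The submitters' processing notes name STAR 2.7.10b, featureCounts 2.0.0 and hg38, and a protocol names hg19; which steps made the table, the annotation release and the strand setting were not given in the sources used here. The deposited values are raw whole counts, 1 row to an Ensembl identifier, not normalized, and overlapping or antisense genes are uncertain for this reason.

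From these counts, knockout was compared with control in edgeR 4.0.16 (R 4.3.3) with TMM normalization, filterByExpr at a minimum count of 10, and the quasi-likelihood F-test (two-sided), adjusted by Benjamini-Hochberg over the 20992 genes tested. The common dispersion was 0.0854, with 2.44 prior degrees of freedom. Log2 CPM had a prior count of 2. Total counts of 88361827 to 93346824 set the depth. Gene positions and exon lengths were matched by identifier to GENCODE 44 on GRCh37. The fit was tested on simulated data with 200 changed genes and a common dispersion. No simulated control library was set apart from the others, so that test does not cover the case of control replicate 3.

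Alternatives were DESeq2 1.42.0, limma-voom (limma 3.58.1) with TMM or quantile normalization, raw library size in place of TMM, the table unfiltered, at least 10 counts in every library, each library left out, and the replicate number as a block. The EMT genes and the related lists were chosen with earlier results of these data known. From each related list up to 4 genes called with all 6 libraries were named, by largest fold change, and where fewer than 2 passed, up to 2 more called without control replicate 3. For each EMT gene called, the 3 genes with the closest profile were named.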

Additional observations from a re-analysis of the deposited data

How the results depend on the processing

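With control replicate 3 left out, the calls over all genes went from 3491 to 14221, and leaving out any other library gave 167 to 1049. Over all libraries left out in turn, the count ran from 167 to 14221, and with a change of 1 log2 unit or more from 156 to 4965, in place of 1482. For the EMT genes it ran from 0 to 9, and with the fold change from 0 to 6, in place of 1. The 0 calls came from edgeR without each of the other 5 libraries, where 2 to 3 of the 10 EMT genes had an unadjusted p under 0.05, against 22.6% to 27.0% of all genes. DESeq2 called 5581 of the 20992 genes tested, 1919 of them with a change of 1 log2 unit or more. Of the 10 EMT genes it called 4 (FN1, EPCAM, VIM and SNAI2), all 4 with such a change. No EMT gene changed direction in any of the 13 alternatives.

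The replicate number as a block gave 407 calls over all genes, 334 with the fold change, and 0 EMT genes, also with the fold change, with 4 of 10 at an unadjusted p under 0.05, against 30.4% of all genes. Libraries of the same number did not deviate together (correlations of 0.01, 0.03 and -0.04). With 3 libraries a group and control replicate 3 far from the other controls, these correlations cannot decide whether the numbers pair the libraries. Control replicates 1 and 2 are the base of the larger fold changes, and with 2 libraries their spread is poorly known. SNAI1 and SNAI2, at 39 to 320 counts per library, have low depth. So does CDH1 in control replicates 1 and 2, at 198 and 147 counts, which are the base of the 14.4-fold rise of CDH1.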
